A study of Mus musculus with 12 samples.

Results

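Trithorax and chromatin remodelling genes were described in cells sorted from E14.5 mouse fetal livers. The set holds 10 genes, Kmt2a, Kmt2c, Kmt2d, Men1, Bptf, Smarca5, Smarca4, Arid1a, Chd4 and Chd7, each matched by its Ensembl identifier among 32285 identifiers counted in hematopoietic stem cells (HSCs) and 56980 in macrophages. The genes were chosen by the HSC values, Kmt2a and Bptf having been higher in Vav-Cre positive HSCs, so the HSC comparison is given here as a description with no test, whereas the macrophage comparison took no part in the choice and was tested. All 10 genes had enough reads to be tested in both sorts.

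Trithorax proteins keep genes active through cell division, and in blood they are best known for sustaining Hox gene expression in stem cells. The KMT2 enzymes methylate histone H3 within COMPASS-like complexes, and menin, the product of Men1, ties KMT2A to chromatin. Remodellers use ATP to slide, space or evict nucleosomes. Smarca4 and Arid1a encode parts of SWI/SNF, Smarca5 the ATPase of ISWI complexes, Bptf the largest subunit of the remodelling factor NURF, and Chd4 and Chd7 encode CHD ATPases, Chd4 that of the NuRD complex.

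Floxed Jag1, the gene of the Notch ligand Jagged1, was present in every group, Cre negative ones included, and the HSC embryos were labelled C57BL/6. Embryos either lacked or carried the Vav-Cre transgene, whose regulatory elements act in blood cells. Whether other cells in the sorts kept the floxed gene was not tested. The labels call the Cre negative HSC embryos WT although their title gives floxed alleles, and HSCs of both genotypes came from littermates. HSCs were gated as DAPI- CD45+ Lin- cKit+ Sca1+ CD48- CD150+ cells (2000 per library), and macrophages as CD169+ cells (1000 to 3000 per library). Each genotype had 3 libraries per sort, 12 in all. The labels do not tie libraries to separate embryos, so p-values measure only the spread between these libraries, which may be technical.

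HSC libraries held 51982064 to 77463770 counted reads. Macrophage libraries held 17230019 to 24658205 reads when Cre negative and 2602934 to 5366990 when Cre positive, so that depth differed with genotype there. A count of 3 equalled 0.0386 to 0.0561 CPM in HSCs (CPM: read counts scaled to a common library size corrected by TMM), 0.138 to 0.174 CPM in Cre negative and 0.522 to 1.08 CPM in Cre positive macrophages. These floors cover counting error only. Jag1 did not separate the HSC groups (1.16 to 6.87 CPM in Cre negative libraries and 0 to 19.5 CPM in the others), so these are called "labelled Cre positive" throughout. In macrophages it lay at 21.1 to 52.6 CPM in Cre negative and 0 to 10.6 CPM in Cre positive libraries. The count takes reads outside the floxed exons too. Both sorts held the transcripts of their gate, with Ly6a (Sca1) at 127 to 190 CPM in HSCs and Siglec1 (CD169) at 16.2 to 117 CPM in macrophages, but also endothelial ones, with Stab2 at 567 to 1569 and 2455 to 5121 CPM. In HSCs 8 endothelial markers summed to 4577 to 10828 CPM and 10 HSC markers to 986 to 2369 CPM. In macrophages the endothelial sum was 7037 to 13477 CPM and that of 12 macrophage markers 665 to 4523 CPM. The share of cells behind these sums was not tested. A pair of libraries stood apart. HSC replicate 3 labelled Cre positive had the lowest Kit (40.1 CPM) and Ptprc (36.9 CPM) and the highest Stab2 of its sort, but also the highest Ly6a (190.4 CPM), and its summed HSC markers (1401 CPM) and endothelial markers (6098 CPM) lay within the range of the other libraries. Macrophage Cre negative replicate 1 had the lowest Adgre1, a macrophage receptor gene, at 22.3 CPM, and the highest summed hepatoblast markers, at 2509 CPM against 248 to 488 CPM elsewhere. Adgre1 was also low in Cre positive libraries (60.1, 60.2 and 70.8 CPM) against 403 and 375 CPM in Cre negative replicates 2 and 3. Summed macrophage markers were 665, 4523 and 3690 CPM in Cre negative replicates 1 to 3 and 679, 757 and 2234 CPM in Cre positive ones.

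The genes are long. Union exon length (all annotated exons of a gene merged) was 20.3 kb for Kmt2c, 19.9 kb for Kmt2d, 16.7 kb for Kmt2a, 14.1 kb for Bptf, 13.8 kb for Chd7 and 11.5 kb for Arid1a. It was 8.02 kb for Chd4, 7.78 kb for Smarca5, 6.48 kb for Smarca4 and 3.84 kb for Men1. Of 13962 genes tested in HSCs, 1258 had exons of 10 kb or more, as had 6 of these 10.

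Promoters are shown for the genes whose HSC libraries did not overlap between the genotypes, as the stretch of 250 bases before the annotated start (RefSeq, GRCm38.p6, minus strand for the 3 genes printed). Promoter entries were found for 9 of the 10 genes. Chd7 had none. Kmt2a is read from chr9:44881290-44881539, Kmt2d from chr15:98871206-98871455 and Bptf from chr11:107132148-107132397. Capitals mark the GC box GGGCGG or its reverse complement CCGCCC.

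Kmt2a: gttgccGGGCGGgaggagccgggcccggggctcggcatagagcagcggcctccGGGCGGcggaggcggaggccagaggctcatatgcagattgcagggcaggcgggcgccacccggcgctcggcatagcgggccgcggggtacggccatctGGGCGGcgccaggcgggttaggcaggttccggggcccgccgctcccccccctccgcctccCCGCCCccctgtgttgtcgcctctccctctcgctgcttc

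Kmt2d: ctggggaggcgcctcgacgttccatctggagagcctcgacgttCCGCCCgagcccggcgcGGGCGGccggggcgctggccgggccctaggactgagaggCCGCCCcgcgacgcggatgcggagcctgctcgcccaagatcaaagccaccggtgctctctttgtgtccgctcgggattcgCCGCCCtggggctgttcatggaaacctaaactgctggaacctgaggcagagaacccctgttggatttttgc

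Bptf: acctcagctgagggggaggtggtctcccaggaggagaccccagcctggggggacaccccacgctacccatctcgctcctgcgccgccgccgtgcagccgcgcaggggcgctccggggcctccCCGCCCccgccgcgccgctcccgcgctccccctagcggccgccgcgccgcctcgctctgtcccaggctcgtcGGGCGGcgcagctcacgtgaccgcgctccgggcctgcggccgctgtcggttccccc

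These are CpG-rich starts. Kmt2a held 29, Kmt2d 26 and Bptf 34 CpG dinucleotides, where the median of 32851 promoters was 6. On either strand the GC box was found 4 times in Kmt2a, 4 times in Kmt2d and 2 times in Bptf. It occurred in all 9 genes with an entry, at up to 12 matches in Kmt2c, and in 32.7% of all promoters. The TATA box TATAAA (12.4% of all promoters) and the ETS motif CCGGAAG (6.91%) had no match in these windows in any of the 9. The CCAAT motif (33.8%) matched at 1 of 2 annotated starts of Chd4 and at all 3 of Men1, and TGGGAA, the core letters bound by the Notch effector RBPJ (21.6%), at 2 of the 3 starts of Men1. A match is a description of the letters and not a binding site.

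In HSCs, the long genes of the set and the shorter Chd4 had higher mean levels in the libraries labelled Cre positive, while Smarca5, Smarca4 and Men1 lay close to no difference. The 6 genes with exons of 10 kb or more had a median log2 fold change (labelled Cre positive minus Cre negative) of 1.07, and all 6 had the higher mean. The 4 shorter genes had a median of 0.03, with Chd4 at 0.90 and the other 3 between -0.09 and 0.10. The difference between the length classes was not tested. Over the set the median was 0.87, and 8 of 10 genes had the higher mean, where the median of all genes tested was -0.00 and 49.7% had the higher mean. For 4 genes (Kmt2a, Kmt2d, Bptf and Chd7) each library labelled Cre positive lay above each Cre negative one. Such a separation upwards was seen in 6.37% of all genes tested, and downwards in 9.33%. Since this contrast chose the genes, nothing is read from these counts. With edgeR (quasi-likelihood test, Benjamini-Hochberg adjusted p) no gene of the table passed (0 of 13962, or 0%; 892 had an unadjusted p under 0.05, and DESeq2 called 133). In bulk samples fewer cells of a type and less RNA per cell cannot be told apart.

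**Figure D1:**
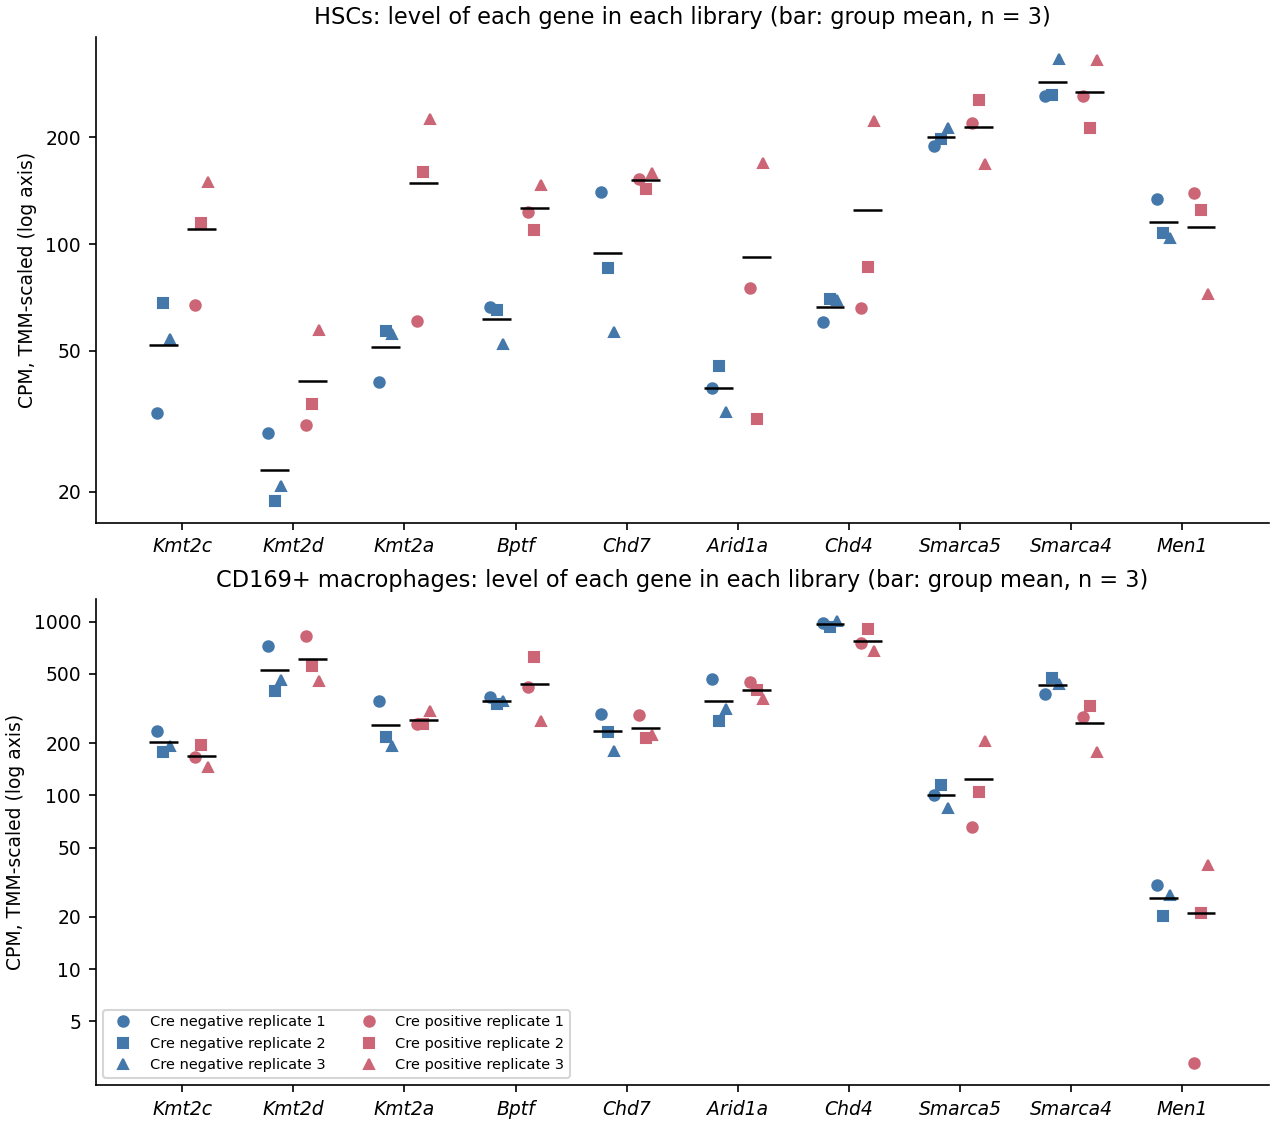
Level of each gene in each library as TMM-scaled CPM on a log axis, HSCs above and macrophages below, genes ordered from the longest to the shortest exon length, points for libraries and bars for group means (n = 3). In HSCs Bptf lies at 52.3 to 66.5 CPM in Cre negative and 109 to 147 CPM in labelled Cre positive HSCs, while the macrophage groups of most genes overlap; levels are not comparable between the panels.

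The histone methyltransferases of the KMT2 family were low for their length in Cre negative HSCs, at 3.07 CPM per kb of exon for Kmt2a, 2.55 for Kmt2c and 1.15 for Kmt2d. The other long genes of the set were low as well, with Arid1a at 3.43, Bptf at 4.36 and Chd7 at 6.84 CPM per kb. The shorter genes lay between 8.30 (Chd4) and 44.2 CPM per kb (Smarca4), with Men1 at 30.0. Kmt2a, the founding mammalian homologue of fly trithorax, lies on chromosome 9 (44803355 to 44881296, minus strand, GRCm38). It measured 40.7, 56.8 and 55.8 CPM in Cre negative replicates 1 to 3 and 60.7, 160 and 225 CPM in labelled Cre positive HSCs. Replicate 1 labelled Cre positive thus lay just above the Cre negative libraries and replicates 2 and 3 far above them. The means were 51.1 ± 9.02 and 148 ± 82.6 CPM (SD, n = 3 each). The log2 fold change was 1.54 (SE 0.46), and 1.11 without replicate 3 labelled Cre positive.

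Kmt2c and Kmt2d encode the paired methyltransferases that act at enhancers. Kmt2c (chromosome 5, 25271798 to 25498783, minus strand) measured 33.4, 68.2 and 53.8 CPM in Cre negative HSCs and 67.4, 115 and 149.5 CPM in labelled Cre positive HSCs. One Cre negative library, replicate 2, lay above the lowest of the other group, so the groups overlapped by that library alone. The log2 fold change was 1.09 (SE 0.39). Kmt2d (chromosome 15, 98831669 to 98871204, minus strand) measured 29.3, 18.9 and 20.7 against 30.8, 35.4 and 57.3 CPM (log2 fold change 0.84, SE 0.43). Its groups were apart by 29.3 to 30.8 CPM, the smallest gap of the 4 separated genes in CPM. Men1 (chromosome 19, 6334979 to 6340891, plus strand), whose product menin binds the amino terminus of KMT2A, did not follow its partner. It measured 134, 107 and 104 CPM in Cre negative HSCs and 139, 125 and 72.4 CPM in labelled Cre positive HSCs (log2 fold change -0.04, SE 0.30). Replicate 3 labelled Cre positive, the highest library for Kmt2a, was the lowest for Men1.

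Among remodellers, Bptf had the widest gap between the groups, in the contrast that chose it. Bptf (chromosome 11, 107033081 to 107132127, minus strand) measured 66.5, 65.3 and 52.3 CPM in Cre negative HSCs and 123, 109 and 147 CPM in labelled Cre positive HSCs. No library labelled Cre positive came near the Cre negative ones, and the log2 fold change of 1.04 (SE 0.25) stayed between 0.92 and 1.13 under all 11 alternatives. Since Bptf was chosen by these same libraries, nothing is read from the gap or from this range. Smarca5 (chromosome 8, 80698507 to 80739497, minus strand), an ISWI ATPase, measured 189.6, 198 and 212 against 219.9, 255 and 169 CPM. Replicate 3 labelled Cre positive was its lowest library and replicate 2 its highest, and the log2 fold change was 0.10 (SE 0.22).

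The SWI/SNF genes went separate ways. Arid1a (chromosome 4, 133679008 to 133756769, minus strand), the DNA-binding subunit of the canonical complex, measured 39.2, 45.3 and 33.6 CPM in Cre negative HSCs and 75.3, 32.1 and 169 CPM in labelled Cre positive HSCs. The latter thus included both the lowest and the highest library of all 6. Its log2 fold change of 1.23 (SE 0.56) was 0.45 without replicate 3. Smarca4 (chromosome 9, 21616169 to 21704230, plus strand), the ATPase also called BRG1, measured 262, 264 and 333 against 263, 212 and 331 CPM (log2 fold change -0.09, SE 0.23). Per kb of exon it had the highest level of the 10 in Cre negative HSCs, at 44.2 CPM per kb.

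Of the CHD genes, Chd7 (chromosome 4, 8690406 to 8867659, plus strand), the gene mutated in human CHARGE syndrome, measured 140.2, 85.9 and 56.6 CPM in Cre negative and 153, 143 and 158 CPM in labelled Cre positive HSCs. These 3 libraries lay within a narrow range, whereas the Cre negative ones were spread, and the log2 fold change was 0.68 (SE 0.34). Chd4 (chromosome 6, 125095981 to 125130591, plus strand) measured 60.5, 69.9 and 69.5 against 66.0, 86.0 and 222 CPM. Only replicate 3 labelled Cre positive was far from the rest, and the log2 fold change of 0.90 (SE 0.45) was 0.19 without it.

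The heat map of log2 ratios shows how far the HSC pattern rested on replicate 3 labelled Cre positive. This library was the highest for 7 of 10 genes, among them all 6 long ones, while it was the highest for 24.7% of all genes tested. Without it the median over the set was 0.48 in place of 0.87, with 9 of 10 genes having the higher mean. Of the 10 genes 5 were then separated upwards, where 12.5% of all genes were. The 10 genes together took 0.0917% to 0.101% of Cre negative reads and 0.123% to 0.169% of reads in the libraries labelled Cre positive.

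**Figure D2:**
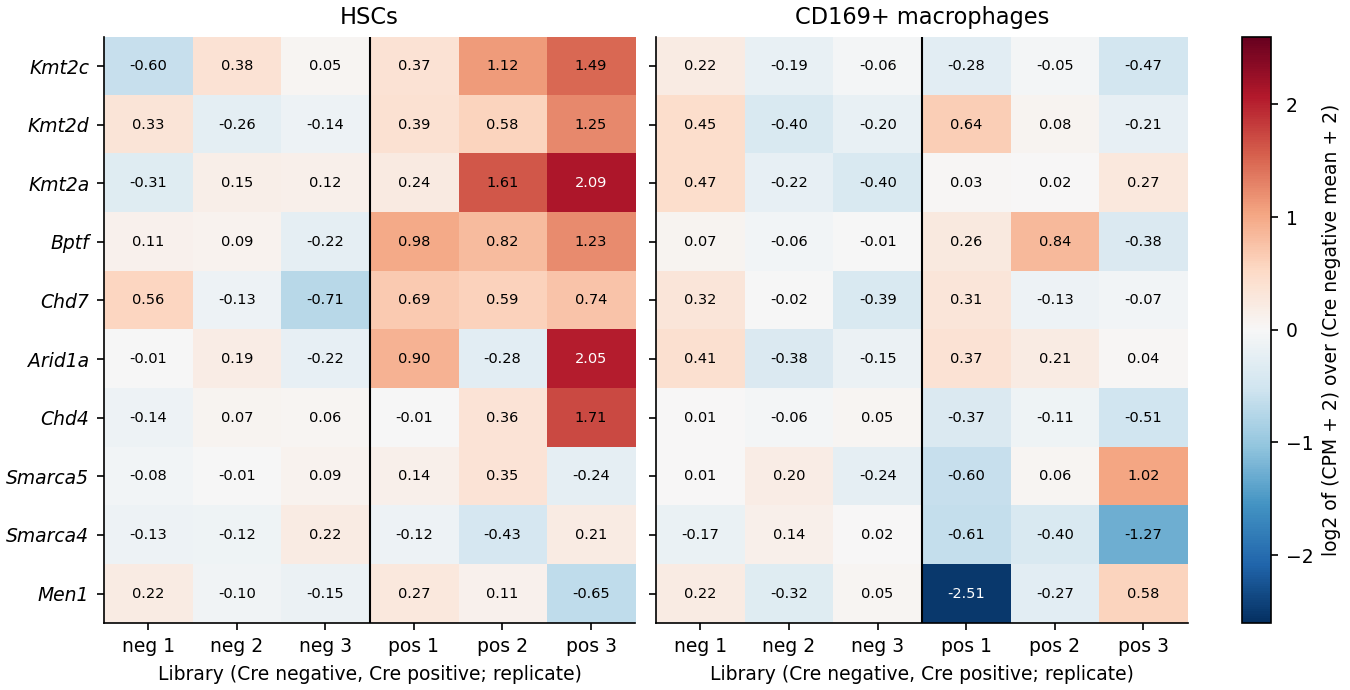
Log2 ratio of each library's level (CPM + 2) to the Cre negative mean (+ 2) of its sort, genes in rows by exon length and libraries in columns. Among HSCs the rows from Kmt2c to Chd4 are highest in the column pos 3, with values from 0.74 (Chd7) to 2.09 (Kmt2a); in macrophages the value farthest from 0 is -2.51 for Men1 in pos 1.

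Over the whole table the HSC difference was not ordered by exon length, being higher in the longest and the shortest genes than between them. Genes of 10 kb or more had a median log2 fold change of 0.19 (1258 genes; quartiles -0.26 and 0.65), and 62.2% of them had a higher labelled Cre positive mean. Genes under 2 kb had a median of 0.27 (2393 genes), and 64.2% of them had the higher mean, both above the long class. Genes of 2 to 4, 4 to 6, 6 to 8 and 8 to 10 kb had medians of -0.07, -0.14, -0.06 and 0.01. In the long class 11.9% of genes were separated upwards and 5.56% downwards, and under 2 kb 9.82% and 5.47%. Reads on genes of 10 kb or more made up 6.71% to 7.76% of Cre negative reads and 8.38% to 8.58% of reads in the libraries labelled Cre positive. The 6 long genes of the set, at 0.68 to 1.54, lay above the upper quartile of their class. The nuclear RNA Malat1 also differed without overlap, at 3369 to 5833 and 6834 to 9167 CPM, and the number of genes with reads was 14315 to 16021 and 12747 to 14386. Summed levels of all 8 cell type marker lists overlapped between the HSC groups, that of 8 endothelial markers lying at 4577 to 10828 and 4607 to 6098 CPM with none at 0. Single markers did separate the groups: Pecam1 (292 to 358 and 140.2 to 176 CPM), Oit3 (1376 to 3398 and 1046 to 1367 CPM), Spic (48.7 to 67.0 and 26.4 to 27.6 CPM) and Serpina1a (11.1 to 23.5 and 7.35 to 10.7 CPM) were lower, and Gp9 (15.0 to 47.6 and 51.5 to 68.7 CPM) was higher, in each library labelled Cre positive. Cd48, which the HSC gate excludes, also separated the groups, at 12.6 to 25.4 CPM in Cre negative and 0 to 8.53 CPM in labelled Cre positive HSCs. The part of length, Malat1 or other cells in the difference was not tested.

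**Figure D3:**
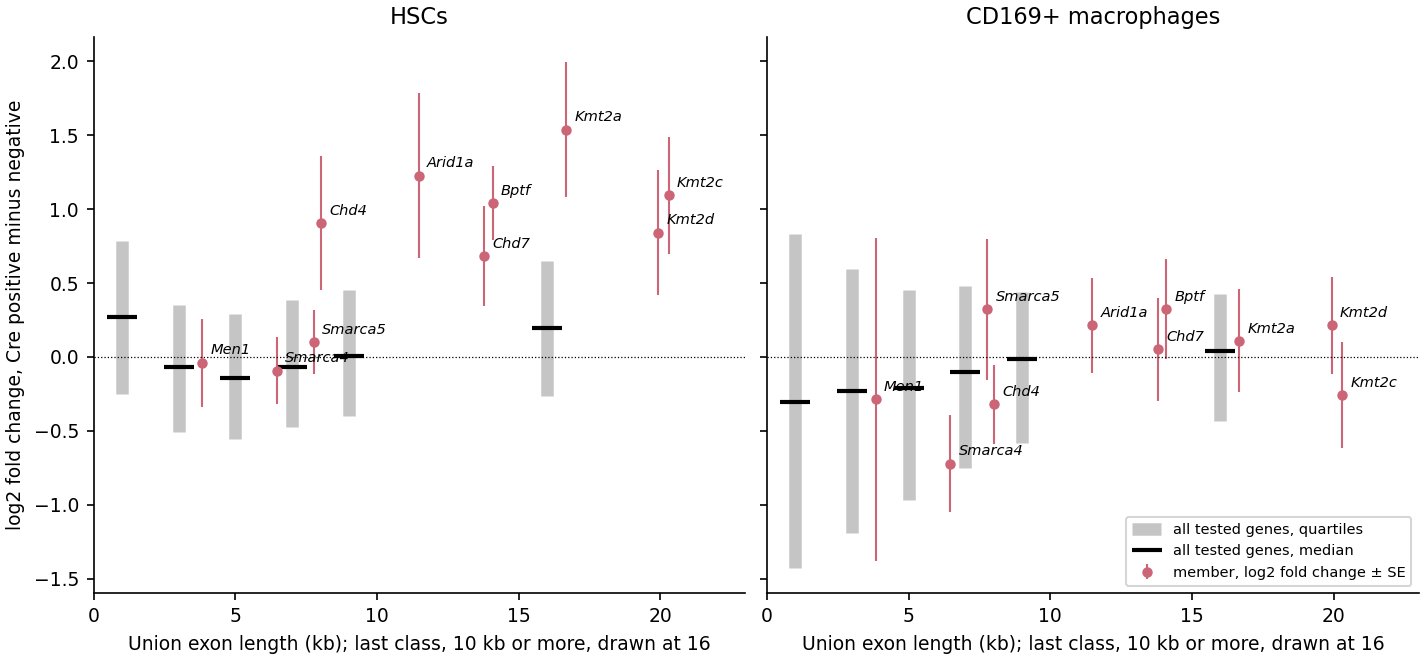
Log2 fold change (Cre positive minus Cre negative) against union exon length in kb. Red points are the 10 genes with their SE, grey bars the quartiles and black marks the medians of all genes tested in 6 length classes. In HSCs the 6 genes beyond 10 kb lie at 0.68 to 1.54 above a class median of 0.19; in macrophages they lie between -0.26 and 0.32 around a class median of 0.04.

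The partners of these genes were followed in 5 lists of 76 COMPASS, SWI/SNF, ISWI, NuRD or CHD, and INO80 or SWR genes, of which 75 were tested in HSCs. As a body they did not share the difference: 45 had the higher and 30 the lower mean, with a median of 0.08, and 9 were separated upwards and 6 downwards (beside 6.37% and 9.33% of all genes). Split by length, 17 of 19 partners of 10 kb or more had the higher mean (median 0.56), against 28 of 56 shorter ones (median -0.01). In the long class as a whole 62.2% of genes had the higher mean. These splits come from the contrast that chose the set and carry no test.

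COMPASS partners (17 tested, 10 higher, median 0.23) were led by the methyltransferase gene Kmt2b, at 7.89, 8.61 and 3.99 CPM in Cre negative HSCs and 8.91, 25.1 and 49.9 CPM in labelled Cre positive HSCs. Rbbp5, a core subunit that all KMT2 enzymes share, lay the other way, at 64.5, 60.6 and 76.5 against 49.4, 15.1 and 41.4 CPM. Dpy30, another shared subunit, lay just higher in each library labelled Cre positive, at 82.5, 98.9 and 84.2 against 101, 99.0 and 112 CPM. Wdr5 and Ash2l, also shared, overlapped between the groups, so the shared subunits did not go 1 way. SWI/SNF subunits (21 tested, 10 higher, median -0.04) held Bcl7a with 12.3 ± 4.11 and 34.1 ± 6.21 CPM and its paralogue Bcl7b with 92.2 ± 4.04 and 63.1 ± 4.52 CPM (SD, n = 3 each). ISWI subunits (11 tested, 8 higher, median 0.18) included the bromodomain gene Cecr2, at 2.08 ± 0.668 and 18.3 ± 12.1 CPM, and the histone chaperone Rbbp7, at 704 ± 23.9 and 539 ± 129 CPM. The CHD and NuRD list (16 tested, 9 higher, median 0.18) had 5 genes separated upwards and 0 downwards (6.37% and 9.33% of all genes), in the contrast that chose the set. Chd3, an alternative NuRD ATPase, measured 28.9 ± 6.52 and 64.7 ± 36.3 CPM and Gatad2b, a NuRD scaffold, 16.7 ± 9.51 and 38.3 ± 7.22 CPM. INO80 and SWR genes (10 tested, 8 higher, median 0.10) had no separated member.

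**Figure D4:**
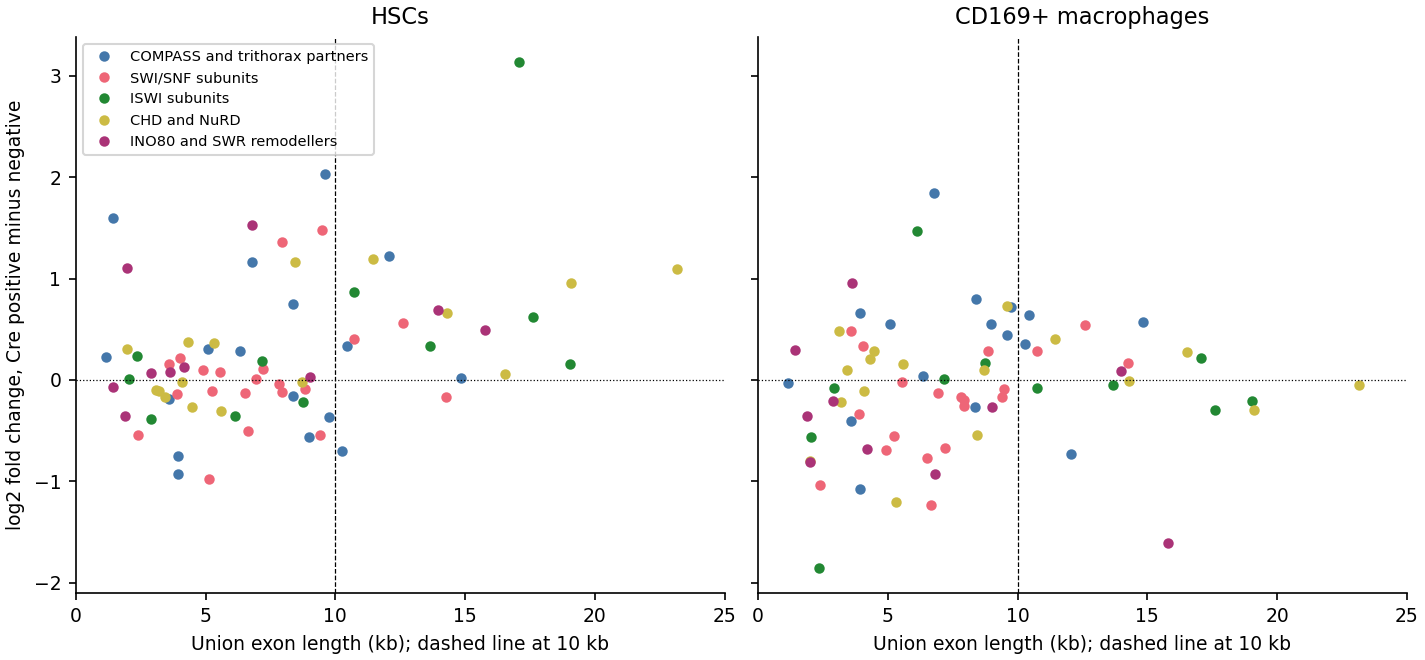
Log2 fold change (Cre positive minus Cre negative) of the tested partner genes against union exon length in kb, coloured by complex, with a dashed line at 10 kb. Beyond the line 17 of 19 genes lie above 0 in HSCs and 10 of 19 in macrophages, where this count was 14 with upper-quartile scaling.

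In macrophages, Kmt2a and Bptf did not separate the genotypes, and none of the 10 genes passed the test. The count was 0 of 10 by edgeR's quasi-likelihood test, where 0 of 17806 genes (0%) were called, 965 having an unadjusted p under 0.05 and DESeq2 calling 61 (0 of the 10). The median over the set was 0.08 and 6 of 10 genes had the higher mean in Cre positive libraries, beside a median of -0.16 and 43.9% over all genes. Relative to the median of all genes the set stood at 0.24 with TMM and 0.24 with upper-quartile scaling, which put the median of all genes at -0.00. With 1 library left out, this difference ranged from 0.01 (leaving out Cre negative replicate 3) to 0.66 (leaving out Cre positive replicate 2), and it was 0.83 with the replicate block and 1.16 without the low-count filter. None of the 10 genes was separated upwards (2.27% of all genes were) and 2, Chd4 and Smarca4, were separated downwards (11.8% of all genes). Without Cre negative replicate 1, 2 genes were separated upwards and 2 downwards, beside 4.73% and 20.5% of all genes.

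Kmt2a measured 351, 218 and 191 CPM in Cre negative and 258, 257 and 305 CPM in Cre positive macrophages, with Cre negative replicate 1 the highest of all 6. The log2 fold change was 0.11 (SE 0.35, edgeR adjusted p = 1.00), and it turned to -0.065 without Cre negative replicate 3 and to -0.038 without Cre positive replicate 3. Bptf measured 368, 335 and 348 against 419, 628 and 268 CPM. Cre positive libraries were thus the lowest and the highest, and the log2 fold change of 0.32 (SE 0.34, edgeR adjusted p = 1.00) was -0.052 without Cre positive replicate 2. Kmt2c lay at 177 to 235 and 145 to 195 CPM (log2 fold change -0.26, SE 0.36) and Kmt2d at 400.2 to 723 and 455 to 825 CPM (0.21, SE 0.33). Both sets of libraries overlapped.

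Smarca4 was the gene of the set with the smallest p in macrophages. It measured 384, 476 and 438 CPM in Cre negative and 282, 328 and 178 CPM in Cre positive libraries, which all lay lower. Its log2 fold change was -0.72 (SE 0.33, edgeR unadjusted p = 0.0435, adjusted p = 0.877). By exact two-sided permutation p was 0.1, below which 3 against 3 libraries cannot go. Chd4, at 978, 933 and 1004 against 751, 903 and 682 CPM, was also lower in each Cre positive library, although replicate 2 came close (log2 fold change -0.32, SE 0.27, edgeR adjusted p = 1.00; exact permutation p = 0.1). Per kb of exon Chd4 had the highest level of the set in Cre negative macrophages, at 121 CPM per kb, followed by Smarca4 at 66.9 and Arid1a at 30.4.

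The other 4 genes overlapped between the macrophage groups. Arid1a lay at 268 to 465 and 359 to 452 CPM, and Chd7 at 179 to 293 and 213 to 292 CPM. Smarca5 measured 101, 115 and 84.5 CPM in Cre negative and 65.5, 104 and 205 CPM in Cre positive libraries, so the latter took both ends of the range. Men1 was the scarcest, at 30.5, 20.3 and 26.7 against 2.88, 21.01 and 39.5 CPM, the value of 2.88 CPM resting on 8 reads. Their log2 fold changes were 0.21 (SE 0.32), 0.05 (SE 0.35), 0.32 (SE 0.47) and -0.28 (SE 1.09), with edgeR adjusted p = 1.00 for each. The sign of the change turned without 1 library for Chd7, Smarca5, Men1, and also for Kmt2d.

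In macrophages the class medians went up with length. Genes of 10 kb or more had a median log2 fold change of 0.04 (1535 genes) and those under 2 kb one of -0.31. Reads on genes of 10 kb or more made up 17.5%, 13.5% and 13.9% of Cre negative and 18.0%, 17.7% and 17.5% of Cre positive reads. Cre negative replicate 1, also the highest library for 4 of the 10 genes, thus lay within the range of the Cre positive ones in this share. Summed stellate and mesenchymal markers (6 of 6 counted) lay at 157 to 1319 CPM in Cre negative and 21.6 to 80.6 CPM in Cre positive libraries, where Pdgfrb was at 0 in all 3. Summed HSC markers (10 listed) lay at 739.5 to 901 and 955 to 1017 CPM, with Mycn at 0 in each Cre positive library. The sums of the other 6 marker lists overlapped. Their part, and that of depth, in the macrophage values was not tested. After thinning all libraries to 2602934 reads, the median over the 10 genes was 0.26 in place of 0.08. That over all genes was -0.01 in place of -0.16. Of the 10 genes 0 were called before and after thinning, so this count tells nothing about depth.

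Of 74 partner genes tested in macrophages, 33 had the higher and 41 the lower mean (median -0.05), and 0 passed. Over all genes tested there the median was -0.16, and 43.9% had the higher mean. Smarce1, a SWI/SNF subunit with an HMG domain, had the smallest p. It measured 148, 216 and 313 CPM in Cre negative and 90.0, 142 and 55.9 CPM in Cre positive libraries (log2 fold change -1.23, SE 0.44, edgeR adjusted p = 0.773). Dpf2, which encodes another subunit, lay at 61.1 to 84.6 and 30.9 to 46.8 CPM. In these 20 SWI/SNF genes, 14 had the lower mean, and their median of -0.17 lay close to the -0.16 of all genes. COMPASS partners (16 tested, 11 higher, median 0.49) included Rbbp5 at 75.8 ± 24.2 and 35.9 ± 21.3 CPM and the trithorax-group methyltransferase Ash1l at 188 ± 38.9 and 279 ± 64.5 CPM (SD, n = 3 each). ISWI genes (11 tested, 4 higher, median -0.07) included Smarca1, the ATPase of human NURF, at 12.8 ± 6.46 and 35.6 ± 30.0 CPM, and Chrac1 at 23.2 ± 14.3 and 6.38 ± 11.1 CPM. In NuRD, Mbd3 measured 166 ± 18.6 and 95.3 ± 67.3 CPM and Mta3 57.6 ± 6.86 and 25.1 ± 19.1 CPM (17 tested on that list, 9 higher, median 0.10). Among INO80 and SWR genes (10 tested, 3 higher, median -0.31), Vps72 measured 78.3 ± 11.3 and 152 ± 131 CPM and Ino80 67.6 ± 7.53 and 35.6 ± 32.5 CPM. All of these had an edgeR adjusted p between 0.773 and 1.00.

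Target genes that KMT2A and menin are known to sustain, among them Hox and Meis genes, were taken as a list of 10. Of 9 tested in HSCs, 8 had a higher labelled Cre positive mean (median 0.43), beside 49.7% of all genes. Separated genes numbered 0 in either direction, where 6.37% of all genes were separated upwards and 9.33% downwards. Nothing is read from these counts. Hoxa9, a homeobox factor of stem cell self-renewal, measured 29.2, 80.0 and 117 CPM in Cre negative HSCs and 86.0, 175 and 86.5 CPM in labelled Cre positive HSCs. Its cofactor Meis1 lay at 80.2 to 281 and 146 to 175 CPM. Replicate 3 labelled Cre positive, the highest for Kmt2a, was the lowest of its group for Hoxa7 (28.7 CPM) and Hoxa10 (32.9 CPM). In macrophages 8 of the targets were tested, 2 were separated upwards and 0 downwards (2.27% and 11.8% of all genes) and 0 passed. Hoxa9 measured 0, 2.85 and 0.415 CPM in Cre negative and 18.0, 4.09 and 10.6 CPM in Cre positive libraries (edgeR adjusted p = 1.00). The Cre negative value of 2.85 CPM, in replicate 2, lay well above that library's floor of 0.140 CPM. Hoxa10 lay at 0 to 1.39 and 0 to 7.92 CPM.

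Set side by side, Kmt2a had log2 fold changes of 1.54 in HSCs and 0.11 in macrophages, Bptf of 1.04 and 0.32, Kmt2c of 1.09 and -0.26, Kmt2d of 0.84 and 0.21, Arid1a of 1.23 and 0.21, and Chd7 of 0.68 and 0.05. Chd4 stood at 0.90 and -0.32, Smarca4 at -0.09 and -0.72, Smarca5 at 0.10 and 0.32, and Men1 at -0.04 and -0.28. Whether these differ between the sorts was not tested, because the HSC values chose the genes.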

How the data were processed

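The authors deposited 1 table of raw, unnormalized counts of reads per gene for each sort. The submitters' processing notes name STAR 2.7.6a, featureCounts and Subread 2.0.1 with builds GRCm38 and mm10 for HSCs, and mm10 alone for macrophages. Counting settings, strand included, were not found in the labels or headers used. Per the labels' protocols, libraries were made with the SMART-Seq v4 kit, which as background does not mark strand. Reads in the exon bases that Kmt2a (378 bases) and Kmt2c (274 bases) share with opposite-strand genes could therefore not be assigned. Names, positions and exon lengths came from GENCODE M21 (GRCm38), which lacks 50 of the HSC and 4855 of the macrophage identifiers (3.92% to 5.90% of macrophage reads).

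Each sort was fitted on its own table with edgeR 4.0.16 in R 4.3.3: filterByExpr (13962 and 17806 genes kept), TMM, robust glmQLFit, then glmQLFTest on the Cre contrast, Benjamini-Hochberg adjusted p under 0.05. Standard errors were derived from the fold change and the F statistic. The fit was also run on simulated counts, which does not show how small a change it can find in these libraries. The alternatives were DESeq2 1.42.0, library totals, upper-quartile scaling, no low-count filter, each library left out, the replicate number as a block and, added after the data were seen, thinning to equal depth. Any pair of libraries in a group differed beyond sampling noise (chi-square per degree of freedom 51.2 to 831), so none was taken for another library sequenced again. This does not tell whether they came from separate embryos.

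The 10 genes and all lists were chosen with earlier results of these data known. By rule up to 2 genes were named from each partner list. In macrophages these had the smallest p. In HSCs they had the largest change among separated genes whose higher group averaged 5 CPM or more. Outside this rule, Meis1, Hoxa7, Hoxa9, Hoxa10, Dpy30, Wdr5 and Ash2l in HSCs were named after their values were seen. Some values of single marker genes are not reported here.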

Additional observations from a re-analysis of the deposited data

How the results depend on the processing

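Of 110 HSC values of single genes under the alternatives, that of Chd4 without replicate 3 labelled Cre positive moved by more than the spread between libraries. HSC genes called numbered 0 under each alternative except DESeq2 (133), and the median over the 10 genes ranged from 0.48 to 1.03 with 1 library left out. In macrophages 0 of the 10 genes were called under any of the 12 alternatives. The count over all macrophage genes was 61 with DESeq2, 21 without the low-count filter, 13 with the replicate block and 1 to 34 with 1 library left out. The macrophage median over the 10 genes was 0.28 with DESeq2, 0.27 on library totals, 0.23 with upper-quartile scaling, 0.26 after thinning and -0.13 to 0.29 with 1 library left out. Chd7 turned to -0.018 without the low-count filter. With 1 library left out, the macrophage log2 fold change ranged from -0.065 to 0.42 for Kmt2a, -0.12 to 0.52 for Kmt2d, -0.052 to 0.52 for Bptf, -0.16 to 0.25 for Chd7, -0.30 to 0.56 for Smarca5 and -1.18 to 0.17 for Men1. Scaling put the macrophage median of all genes between -0.16 (TMM) and 0.05 (library totals). The cause of these shifts was not tested.

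Same-numbered libraries did not deviate together (correlations of -0.03 to 0.03 over genes). With 3 libraries per group this cannot exclude that libraries of the same number share a litter or batch. With the replicate block the HSC count of called genes was 0 and the median over the 10 genes 0.80 (0.11 in macrophages). The depth of Cre positive macrophage libraries limits Men1 most, at 8 reads in replicate 1.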

Other observations

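The nuclear RNA Neat1 overlapped between the HSC groups, at 10.4 to 24.6 CPM when Cre negative and 15.5 to 51.6 CPM when labelled Cre positive, whereas Malat1 did not.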
